A study of Homo sapiens with 6 samples.

Results

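The genes described here encode the proteins of the cytosolic ribosome. They were taken by name from each of 3 gene tables, as entries whose symbol is RPL or RPS followed by a number with an optional A, X or L, or is RPLP0, RPLP1, RPLP2 or RPSA, and whose level in the control library was at least 1 RPKM (read number divided by exon length and by library depth). In mouse embryonic fibroblasts (MEFs) 80 of 49089 listed genes met both conditions. In each of the human breast cancer lines MDA-MB-231 and HCC1937 the count was 79 of 63568 entries, and 78 symbols were shared by all 3 cell types. The study asked what loss of LARP7, an RNA-binding protein that stabilises the 7SK noncoding RNA, does to gene expression, and the RNA of 6 cultures was sequenced. The MEFs came from E13.5 embryos, were used at passages 1 to 6 and were either wild-type or LARP7-/-. MDA-MB-231 and HCC1937 cells were treated with 10 ng/ml of siLARP7 or of the control siRNA, siNC. The labels do not say how many embryos or cultures stand behind a library. With 1 library in each group there is no replicate spread to set a difference against, so values are described and no p-value is given.

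A ribosome is built from rRNA and a single copy of nearly every ribosomal protein, so cells keep the mRNAs of these proteins in step with each other and with growth. The mRNAs typically begin with an unbroken run of pyrimidines, the 5′ terminal oligopyrimidine (TOP) motif, through which the growth kinase complex mTORC1 and the RNA-binding protein LARP1 set their stability and translation. In fibroblasts and tumour lines they are among the most abundant mRNAs, while RNA polymerase I makes most of the rRNA and MYC drives genes of both branches.

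Depth was 36.9 to 53.3 M reads per library, as recovered from the RPKM steps of short genes. LARP7 itself stood at 37.6% of the control in knockout MEFs and at 52.2% and 51.4% in siLARP7-treated MDA-MB-231 and HCC1937. The MEF control library carried fibroblast markers (Col1a1 at 1594 RPKM, Vim at 698 RPKM) with the pan-leukocyte Ptprc at 0.0370 RPKM and Cd3e at 0. Of the other leukocyte markers, Lyz2 stood at 22.4 RPKM in wild-type and 28.3 RPKM in knockout MEFs and Cd68 at 2.05 and 3.62 RPKM, and their part in the results was not tested. In MDA-MB-231, VIM stood at 149 RPKM while 5 of 7 epithelial markers ranged from 0 to 3.50 RPKM and the other two, KRT8 and KRT18, stood at 67.1 and 68.3 RPKM. In HCC1937 the 7 epithelial markers ranged from 10.1 RPKM (KRT5) to 302 RPKM (KRT8), and VIM stood at 1.69 RPKM. The other mesenchymal markers, CD44 and AXL, stood at 32.5 and 18.7 RPKM there, beside 100 and 125 RPKM in MDA-MB-231. In bulk RNA, fewer cells of a type and less RNA per cell cannot be told apart. The human tables list several ribosomal protein genes more than once, under IDs that the primary assembly of the reference annotation does not hold, and a single entry per gene was kept.

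The starts of the human genes showed what most of them share beyond the name. RefSeq on GRCh38.p14 gave start sequences for 63 of the 79 human genes, and 46 of these (73.0%) began with 5 or more pyrimidines from the first transcribed base, against 6.50% of 27305 genes with a start in the same table. The windows of 10 bases before and 20 bases from the annotated start are shown, 5′ to 3′, for the genes that the comparisons below turn on, with the pyrimidines that run from the first transcribed base in capitals.
RPS21 (chr20:62387093-62387122, plus strand): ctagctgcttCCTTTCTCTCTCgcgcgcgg
RPL39 (chrX:119791611-119791640, minus strand): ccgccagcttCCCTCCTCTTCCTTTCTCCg
RPL31 (chr2:101002279-101002308, plus strand): ccttcgcgctCTTCCTTTCCaacttggacg
RPL32 (chr3:12841546-12841575, minus strand): acgacccatcagcccttgcgcgccaccgtc
RPL13 (chr16:89560672-89560701, plus strand): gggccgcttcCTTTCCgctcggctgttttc
RPL28 (chr19:55385922-55385951, plus strand): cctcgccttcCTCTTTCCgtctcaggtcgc
RPS29 (chr14:49598691-49598720, minus strand): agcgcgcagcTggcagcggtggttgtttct
RPL6 (chr12:112411423-112411452, minus strand): gtatcctcagTgaatcagaaccagaaaaag
RPLP2 (chr11:809957-809986, plus strand): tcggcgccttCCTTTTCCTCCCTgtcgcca
RPS6 (chr9:19380217-19380246, minus strand): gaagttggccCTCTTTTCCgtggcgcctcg
RPS27L (chr15:63157458-63157487, minus strand): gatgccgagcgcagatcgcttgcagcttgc
The longest run among all 63 genes was that of RPL39, with 19 pyrimidines, and RPL7A followed with 16. RPL32, RPS29, RPL6 and RPS27L had at most 1 pyrimidine at the annotated start of this table, and a start that lies a few bases away would read differently. Among the 300 bases around the start (250 before, 50 after), CCGGAAG was present on either strand in 36.5% of the genes and in 12.2% of all genes. ATGGCG was present in 39.7% against 12.7%, and the TATA-box letters TATAAA in 7.94% against 13.99%, each motif counted on its own, overlaps with another one allowed. These matches describe the letters only. Among the genes without an entry in the table were RPL23, RPL23A, RPL30, RPL37, RPL39L, RPL5, RPL7, RPL8, RPS15A, RPS2 and RPS20.

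In LARP7 knockout MEFs the ribosomal protein mRNAs were lower almost as a block, by a small amount. Their median log2 ratio of knockout to wild-type was -0.20, on log2(RPKM + 1), where the median of all 13689 genes at 1 RPKM or more was -0.02 and that of the 1227 genes at 50 RPKM or more was -0.07. Of the 80 genes 76 lay below 0, where 52.9% of all genes did. The quartiles of the 80 genes were -0.25 and -0.13, whereas those of all genes were -0.20 and 0.19. On this scale 0 of the 80 genes were lower or higher by 1.5-fold, a size that 4.25% of all genes passed downwards and 5.75% upwards, and 0 by 2-fold, which 0.935% passed downwards and 1.59% upwards. Summed over the 80 genes, the level was 28211 RPKM in wild-type and 24727 RPKM in knockout cells, which is 87.6% of the control.

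**Figure D1:**
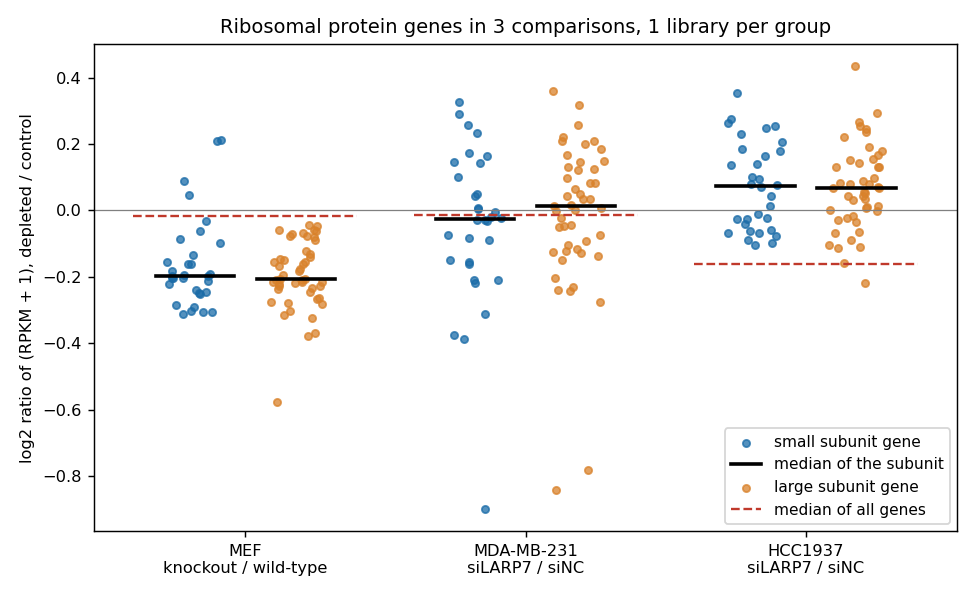
Log2 ratio of RPKM + 1, LARP7-depleted over control, for each ribosomal protein gene (points) in MEFs, MDA-MB-231 and HCC1937, by subunit, with subunit medians (black bars) and the median of all genes at 1 RPKM or more (red dashes). In MEFs 76 of 80 points lie below 0, and in MDA-MB-231 the points centre on 0 with RPS21, RPL39 and RPL31 far below. In HCC1937 53 of 79 lie above 0 as deposited. Once a composition trend is removed (not plotted) 72 of 79 lie below 0, where 73.4% of all genes do.

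Both subunits took part in MEFs. All 48 large subunit genes were lower (median -0.21), and 28 of 32 small subunit genes were lower (median -0.20). Proteins with a bacterial counterpart and those without one had medians of -0.20 and -0.19. At the low end stood Rpl39l, the paralog of Rpl39 known from male germ cells, with 9.69 RPKM in wild-type and 6.16 RPKM in knockout cells (log2 ratio -0.58), which in RPKM without the added 1 is 63.6% of the control. Rpl14, a large subunit protein that bacteria lack, measured 489 RPKM in wild-type and 376 RPKM in knockout cells (log2 ratio -0.38). The large subunit gene Rpl24 measured 394 RPKM in wild-type and 305 RPKM in knockout cells (log2 ratio -0.37). These and Rpl6l (-0.32) were the lowest 4 of the 80, and Rpl39l was also the least abundant of them.

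Above 0 in MEFs stood 4 small subunit genes. Rps28, a protein beside the mRNA exit channel, measured 98.7 RPKM in wild-type and 114 RPKM in knockout cells (log2 ratio 0.21). Rps4l, a copy of the X-linked Rps4x, measured 56.0 RPKM in wild-type and 65.0 RPKM in knockout cells (log2 ratio 0.21), whereas Rps4x itself measured 348 RPKM in wild-type and 292 RPKM in knockout cells (log2 ratio -0.25). Rps29, a zinc-binding protein of the small subunit head, was at 106% of its control level and Rps19, the protein most often mutated in Diamond-Blackfan anaemia, at 103%. The authors' deposited table, which gives a log2 change that the GFOLD program shrinks towards 0, listed 74 of the 80 genes below 0, 2 at 0 and 4 above 0, where it put 31.3% of all genes below 0 and 28.1% above. After scaling the libraries to each other by the median ratio or by a trimmed mean, the median of the 80 genes was -0.19 or -0.26. With median-ratio scaling 76 genes lay below 0, where 51.2% of all genes did, and with the trimmed mean 77, where 59.9% of all genes did and their median moved to -0.07.

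**Figure D2:**
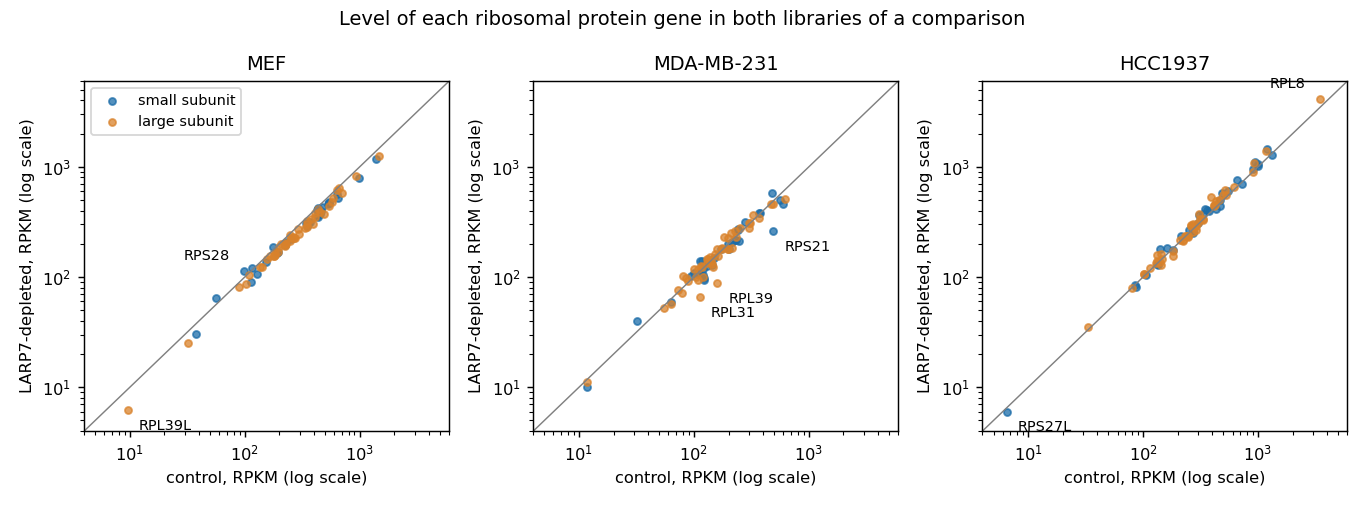
RPKM of each ribosomal protein gene in the control library (x axis, log scale) and in the LARP7-depleted library (y axis, log scale) for MEFs, MDA-MB-231 and HCC1937, coloured by subunit, with the line of equal level. In MEFs 76 of 80 points lie under the line, across the range from 9.69 to 1459 RPKM, and in MDA-MB-231 only RPS21, RPL39 and RPL31 leave it by more than 1.5-fold.

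In MDA-MB-231 cells the family's median log2 ratio was close to 0, and single genes differed from their control level in both directions. The median log2 ratio of siLARP7 to siNC was -0.00, beside -0.01 over all 15472 genes, with 40 of the 79 genes below 0 (where 52.4% of all genes were). The 3 genes lower by 1.5-fold or more were a share of the family close to the 4.23% of all genes that passed this size downwards, and no gene passed it upwards, where 1.81% of all genes did. Of the 79 genes 0 reached 2-fold, which 0.776% of all genes passed downwards and 0.213% upwards. With the composition trend described next removed, the median was 0.07 and 26 genes lay below 0, where 50.4% of all genes did.

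RPS21 encodes a small subunit protein specific to eukaryotes and lies at chr20:62387116-62388520 (GRCh38, gene bounds of GENCODE release 29). It measured 491 RPKM under siNC and 263 RPKM under siLARP7, which is 53.5% of the control with a 95% interval from counting error alone of 52.4% to 54.6% (log2 ratio -0.90). RPL39, a short protein at the exit tunnel of the large subunit (chrX:119786504-119791643), measured 159.8 RPKM under siNC and 88.7 RPKM under siLARP7, or 55.5% (54.2% to 56.9%, log2 ratio -0.84). RPL31, which lies at the rim of the same tunnel (chr2:101001715-101024032), measured 113 RPKM under siNC and 65.3 RPKM under siLARP7, or 57.8% (56.8% to 58.8%, log2 ratio -0.78). These 3 were the lowest of the family by ratio, and no other gene passed 1.5-fold. RPS27A, at 76.9% of its control level (75.3% to 78.5%), was among the lowest of the rest. In the other cell types the 3 genes were within the family's range: RPS21 stood at 95.8% of the control in MEFs and 95.7% in HCC1937, RPL39 at 93.9% and 93.0%, and RPL31 at 88.1% and 95.4%. All 3 start with a pyrimidine run of 10 or more bases in the windows above, which is not particular to them. The longest runs after that of RPL39 were those of RPL7A (16 bases), RPS24 (14) and RPLP2 (13). Their log2 ratios in MDA-MB-231 were 0.02, 0.23 and 0.26.

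The values of the 3 genes depended little on the processing. The composition trend, a curve of the log2 ratio on the GC content, length and level of transcripts, was fitted over 11524 protein-coding genes, and with it removed their log2 ratios in MDA-MB-231 were -0.89, -0.77 and -0.72. The authors' deposited table gives -0.87, -0.81 and -0.76. For RPL39 the processed pseudogene RPL39P3, an intronless copy whose reads may overlap with its parent's, measured 657 RPKM under siNC and 256 RPKM under siLARP7 (log2 ratio -1.36), so it was lower in the same library as its parent. No handling of reads that match both copies is named in the labels.

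The other end of the family in MDA-MB-231 held RPL32, RPS15A and RPL13. RPL32, a large subunit protein without a bacterial counterpart, measured 80.0 RPKM under siNC and 103 RPKM under siLARP7 (log2 ratio 0.36). RPS15A of the small subunit measured 31.7 RPKM under siNC and 40.02 RPKM under siLARP7 (log2 ratio 0.33). RPL13 measured 184 RPKM under siNC and 229.8 RPKM under siLARP7 (log2 ratio 0.32). None of these passed 1.5-fold. The authors' deposited table put 32 of the 79 genes below 0, 14 at 0 and 33 above, where 31.8% of all genes were below 0 and 27.2% above. In this pair of libraries the mitochondrially encoded genes took 27.8% of the summed RPKM with siNC and 35.2% with siLARP7, while the ribosomal protein genes took 4.17% and 3.72%. Of the sum without mitochondrially encoded genes they took 5.78% and 5.74%.

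In HCC1937 cells the ribosomal protein genes stood higher than most genes as deposited, and the sign of the family's median turned with the processing. Their median log2 ratio was 0.07, whereas the median of all 14095 genes was shifted to -0.16, and 53 of the 79 genes lay above 0, where 32.7% of all genes did. The 1060 genes at 50 RPKM or more had the same median of 0.07, so abundant genes in general stood there. With the composition trend removed the median of the 79 genes was -0.13 beside -0.16 for all genes, and 72 of them lay below 0 where 73.4% of all genes did. Relative to a library scaled by the median ratio the median was 0.22, with 2 genes below 0 where 54.2% of all genes were. Scaled by a trimmed mean it was 0.27, with 1 gene below 0 where 49.5% of all genes were. All genes had medians of -0.04 and 0.004 under these scalings. The family's median was thus above that of all genes under each setting, and closest to it with the trend removed. No gene passed 1.5-fold in either direction, where 11.7% of all genes passed it downwards and 2.2% upwards, and none 2-fold, which 1.32% of all genes passed downwards and 0.298% upwards.

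Differences among the 79 genes in HCC1937 went with the base composition of their longest annotated transcripts. For some of these genes that transcript is long (7062 bases for RPS29) and may not be the form expressed. Over the 79 genes, which share both libraries and are not replicates, the log2 ratio had a Pearson correlation of 0.56 with transcript GC content (Spearman 0.557), and over 10708 protein-coding genes one of 0.56 (Spearman 0.572). RPL28 (55.3% GC), a large subunit protein that bacteria lack, measured 306 RPKM under siNC and 375 RPKM under siLARP7 (log2 ratio 0.29, and -0.03 with the trend removed). RPL8, which sits beside the peptidyl transferase centre, measured 3434 RPKM under siNC and 4129 RPKM under siLARP7 (log2 ratio 0.27, and 0.02 with the trend removed).

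RPS29 stood near the top of the family with and without the trend. Its longest transcript in the annotation has 42.8% GC, it measured 140.3 RPKM under siNC and 179 RPKM under siLARP7, which is 128% of the control (127% to 129% from counting error alone), and its log2 ratio was 0.35 as deposited and 0.29 with the trend removed. It was one of the 4 genes above 0 in MEFs as well (0.09), and stood at 98.6% of its control level in MDA-MB-231. At the low end of the family in HCC1937 were RPL23A, RPL6, RPL36A and RPL5, with GC contents of 49.9%, 42.8%, 42.01% and 37.4%. RPL23A, which sits at the tunnel exit where the signal recognition particle docks, measured 180.5 RPKM under siNC and 155 RPKM under siLARP7 (log2 ratio -0.22). RPL6 was at 89.5% of its control level, RPL36A at 92.5% and RPL5 at 92.6%. Genes shared with bacteria had a median of 0.10 with 28 of 33 above 0, and the others a median of 0.01 with 25 of 46 above 0, where 32.7% of all genes were. With the trend removed these medians were -0.10 and -0.16. The authors' deposited table put 19 of the 79 genes below 0, 13 at 0 and 47 above, where 50.9% of all genes were below and 20.1% above.

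**Figure D3:**
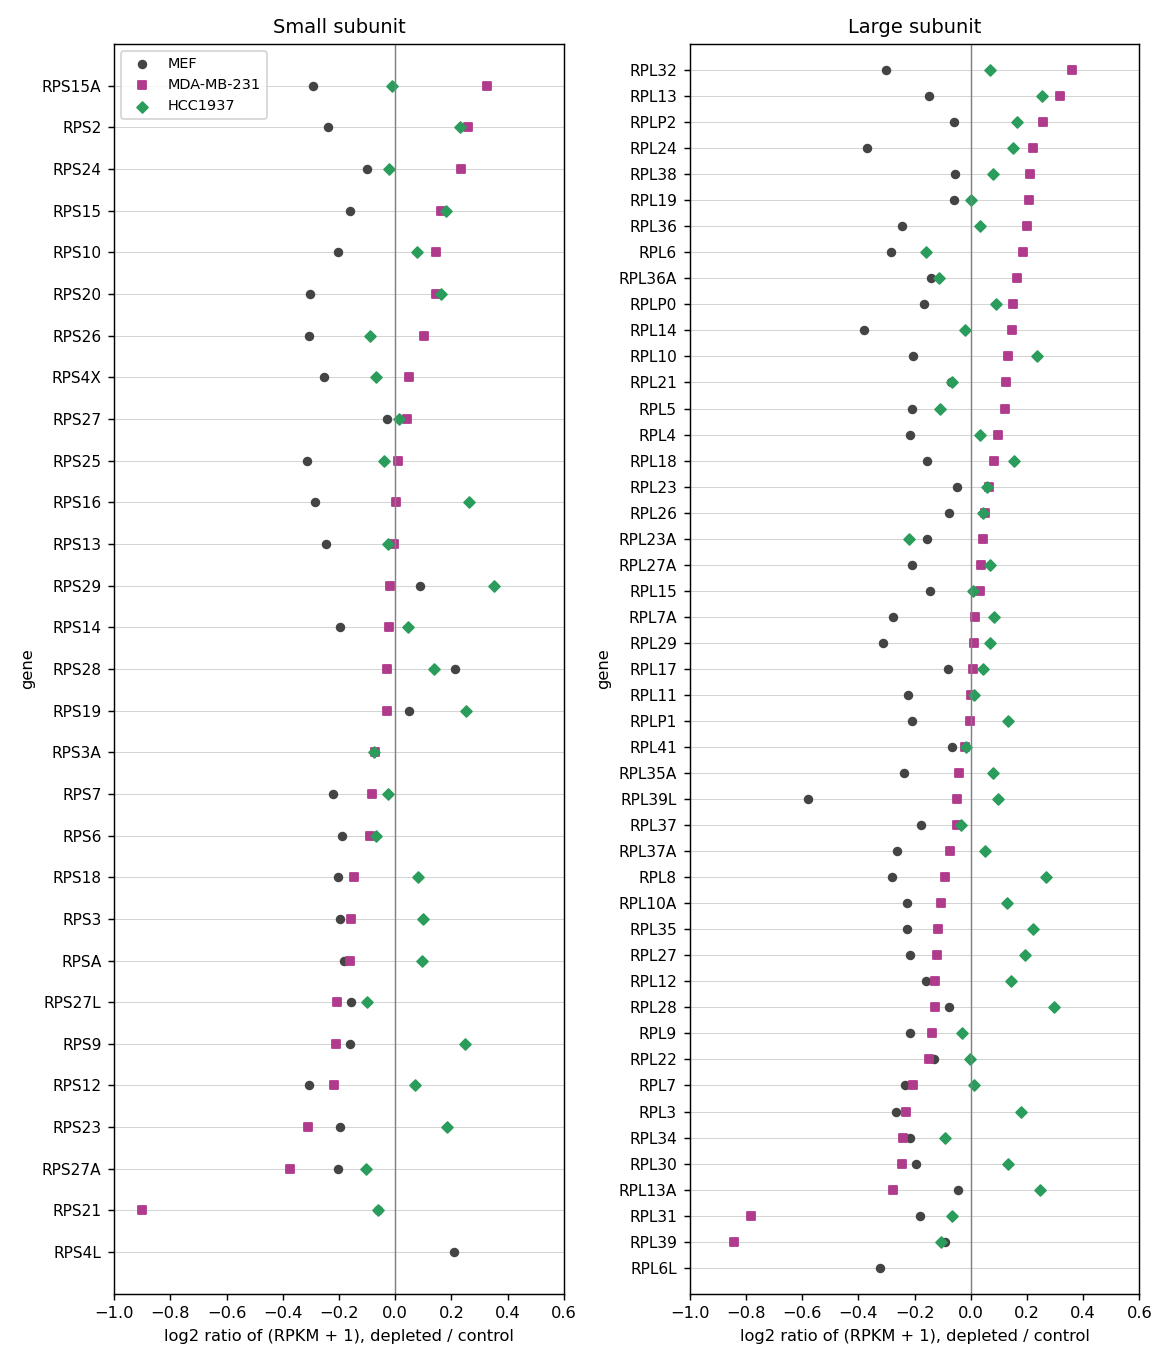
Log2 ratio of RPKM + 1, LARP7-depleted over control, for each ribosomal protein gene (rows, ordered by the MDA-MB-231 ratio, some genes not shown, small subunit left and large subunit right) in MEFs (circles), MDA-MB-231 (squares) and HCC1937 (diamonds). RPS21, RPL39 and RPL31 lie far left in MDA-MB-231 alone, at -0.90, -0.84 and -0.78, and no gene is above 0 in all 3 comparisons as deposited.

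By role, RPSA and RPS3 of the small subunit were close to each other in every comparison, below their control level in MEFs and MDA-MB-231 and above it in HCC1937 as deposited (log2 ratios of -0.05 and -0.06 there with the composition trend removed). RPSA, the small subunit protein also described as a laminin receptor, was at 88.2% of the control in MEFs, 89.4% in MDA-MB-231 and 107% in HCC1937. RPS3, which lines the mRNA entry and also acts as a DNA repair enzyme, was at 87.3% of the control in MEFs, 89.7% in MDA-MB-231 and 107% in HCC1937. RPS6, the protein that the S6 kinases phosphorylate downstream of mTORC1, measured 457 and 400.2 RPKM in control and depleted MEFs, 232 and 218 RPKM in MDA-MB-231, and 463 and 442 RPKM in HCC1937. RPS6 was thus lower in all 3 depleted libraries as deposited. In HCC1937 its log2 ratio was -0.07, or 0.08 with median-ratio scaling. In MDA-MB-231 its log2 ratio was -0.09, or 0.05 with the composition trend removed. RPS27A is made as a fusion with ubiquitin and measured 194 and 169 RPKM in control and depleted MEFs, 123 and 94.6 RPKM in MDA-MB-231, and 270.4 and 251 RPKM in HCC1937. At 76.9% of its control level it was the fifth lowest gene in MDA-MB-231. RPS19 was at 103% of the control in MEFs, 97.9% in MDA-MB-231 and 119% in HCC1937, so its highest ratio as deposited was in HCC1937. With the composition trend removed its log2 ratio in HCC1937 was -0.13.

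In the large subunit, RPL5 and RPL11 form with 5S rRNA the particle that binds MDM2 when ribosome assembly is disturbed. RPL5 measured 142 and 122 RPKM in control and depleted MEFs, 133 and 145 RPKM in MDA-MB-231, and 290.4 and 269 RPKM in HCC1937. RPL11 measured 181 and 155 RPKM in control and depleted MEFs, 232 and 232 RPKM in MDA-MB-231, and 335 and 337 RPKM in HCC1937. Within MEFs both stood near the family's median, and RPL11 differed from its control by very little in either line. MDM2 itself measured 47.7 and 66.4 RPKM in control and knockout MEFs, 6.19 and 4.71 RPKM in MDA-MB-231 and 3.41 and 2.14 RPKM in HCC1937. CDKN1A, the p21 cell cycle inhibitor, stood at 259 and 339 RPKM, 9.31 and 15.3 RPKM, and 24.9 and 25.9 RPKM in the same order. CDKN1A was higher in the depleted MEF and MDA-MB-231 libraries, and MDM2 in the MEFs alone. The part of RPL5 and RPL11 in these values was not tested.

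The P stalk, which recruits the GTPase translation factors, is made of RPLP0, RPLP1 and RPLP2. RPLP0, its base, was at 89.1% of the control in MEFs, 111% in MDA-MB-231 and 106% in HCC1937. RPLP1 was at 86.6% of the control in MEFs, 99.8% in MDA-MB-231 and 109.5% in HCC1937, and RPLP2 at 95.9% of the control in MEFs, 119.7% in MDA-MB-231 and 112% in HCC1937. As deposited, RPLP2 lay above the family's median in all 3 comparisons. With the composition trend removed in HCC1937 its log2 ratio was -0.34, below the family's median of -0.13. RPL3, next to the peptidyl transferase centre, was at 83.0% of the control in MEFs, 85.1% in MDA-MB-231 and 113% in HCC1937. RPL10, which joins the large subunit late in its assembly, was at 86.7% of the control in MEFs, 109.6% in MDA-MB-231 and 118% in HCC1937, with 2 entries of unequal level in the human tables. RPL22, which lies on the subunit surface and binds other RNAs outside the ribosome, was at 91.2% of the control in MEFs, 90.0% in MDA-MB-231 and 99.8% in HCC1937. With the composition trend removed in HCC1937 the log2 ratios of RPLP0, RPLP1, RPL3, RPL10 and RPL22 were -0.16, -0.06, -0.18, -0.03 and -0.14.

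The paralogs given in this paragraph stood below their counterparts in each cell type where they were listed. RPL10L, a testis copy of RPL10, was listed at 0 in all 6 libraries. RPL3L, the muscle copy of RPL3, was listed at 0 in both MEF libraries, at 0.0439 and 0.163 RPKM in control and depleted MDA-MB-231 and at 0.184 and 0.229 RPKM in HCC1937, beside 215 and 261 RPKM for RPL3 in the human controls. RPS10L, listed for the human lines only, stood at 0.0380 and 0.530 RPKM in MDA-MB-231 and 0.420 and 0.930 RPKM in HCC1937. These genes were under 1 RPKM in the controls and so were not counted. RPL39L passed the minimum in each cell type, with 9.69 and 6.16 RPKM in control and depleted MEFs, 11.6 and 11.2 RPKM in MDA-MB-231, and 32.9 and 35.3 RPKM in HCC1937, where RPL39 had control levels of 166, 159.8 and 273 RPKM. RPS27L measured 153 and 137 RPKM in control and depleted MEFs, 11.8 and 10.1 RPKM in MDA-MB-231, and 6.51 and 6.01 RPKM in HCC1937, where RPS27 had 434, 371 and 1005 RPKM in the controls. RPS27L had its highest level in MEFs, and its ratio was below 0 in all 3 comparisons as deposited.

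The 3 comparisons did not order the genes alike. Over the 78 shared genes the log2 ratios had Spearman correlations of -0.08 between MEFs and MDA-MB-231, 0.10 between MEFs and HCC1937 and -0.02 between the lines (Pearson -0.13, 0.16 and 0.10), given as descriptions of genes measured in 1 pair of libraries each. As deposited, 13 genes were below 0 in all 3 comparisons (RPL22, RPL31, RPL34, RPL37, RPL39, RPL41, RPL9, RPS13, RPS21, RPS27A, RPS27L, RPS6 and RPS7) and 0 were above 0 in all 3, whereas of 8078 symbols at 1 RPKM or more in all 3 controls 23.1% were below 0 and 8.41% above 0 in all 3. In HCC1937 this depends on the scaling, since 2 of the 79 genes lay below 0 there after median-ratio scaling. In MDA-MB-231 it depends on the composition trend. With that removed RPL37, RPL41, RPL9, RPS13, RPS6 and RPS7 lay above 0 there, and the rest of the 13 below. Set against the family's own median, 8 genes lay above it in all 3 comparisons as deposited and 7 below. Of the 8078 symbols 15.2% lay above and 15% below the median of all genes in the same way, so the counts of the family were no higher than these shares. By the smallest of a gene's 3 departures as deposited, RPLP2, RPL13 and RPL18 were among the 5 genes furthest from the family's median. With the composition trend removed in HCC1937, RPLP2 (-0.34) and RPL18 (-0.20) lay below the family's median there (-0.13), and RPL13 (-0.09) above it. RPL13 was at 90.1% of the control in MEFs, 125% in MDA-MB-231 and 119% in HCC1937, and RPL18 at 89.7% of the control in MEFs, 106% in MDA-MB-231 and 111% in HCC1937.

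Grouped by the annotated start, genes with and without a pyrimidine run had similar ratios in the human lines. The 46 genes with a pyrimidine run had a median log2 ratio of -0.01 in MDA-MB-231 and 0.07 in HCC1937, and the 17 without one had 0.01 and 0.03. Their ranges overlapped, from -0.90 to 0.32 with a run and -0.23 to 0.36 without in MDA-MB-231, and from -0.11 to 0.29 and -0.16 to 0.35 in HCC1937. The 3 lowest genes in MDA-MB-231 all had a run, as did most of the family. Some genes counted as without a run have pyrimidines on both sides of the annotated start, and a start a few bases away would move them. The split therefore cannot show whether a TOP start matters for the ratio.

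Before LARP7 depletion the cell types already differed in how much ribosomal protein mRNA they held. The genes took 7.21% of the summed RPKM of wild-type MEFs, 4.17% of MDA-MB-231 with siNC and 9.09% of HCC1937 with siNC. In the depleted libraries these shares were 6.22%, 3.72% and 9.58%. Of the sum without mitochondrially encoded genes, the controls held 7.72%, 5.78% and 9.65% and the depleted libraries 6.73%, 5.74% and 9.98%, in the same order. RPKM divides by the length of all annotated exons, which for some of these short mRNAs includes rare long exons, so the order of genes within a library depends on the annotation. In wild-type MEFs the median gene stood at 282 RPKM and the highest were Rplp1 at 1459 RPKM, Rps2 at 1399 RPKM and Rps26 at 987 RPKM, with Rpl39l, Rpl6l (31.99 RPKM) and Rps15a (37.6 RPKM) lowest. In MDA-MB-231 the median was 150.3 RPKM, with RPL13A (615 RPKM) and RPS18 (559 RPKM) among the highest 3 and RPL39L, RPS27L and RPS15A (31.7 RPKM) lowest. In HCC1937 it was 286 RPKM, with RPL8 and RPS21 among the highest 3 and RPS27L, RPL39L and RPL22 (80.1 RPKM) lowest. The control levels had a Spearman correlation of 0.78 between the human lines over the 78 genes, 0.44 between MEFs and MDA-MB-231 and 0.30 between MEFs and HCC1937, the last 2 across different annotations.

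HCC1937 held more of nearly every ribosomal protein mRNA than MDA-MB-231. With siNC in both, 71 of the 79 genes were higher in HCC1937, where 38.8% of all genes were, and the median log2 difference was 0.93 beside -0.27 for all genes. By 2-fold or more 32 genes were higher, where 9.77% of all genes were, and 0 were lower, where 22.8% of all genes were. RPL8 stood at 487 RPKM in MDA-MB-231 and 3434 RPKM in HCC1937 (log2 difference 2.82). RPL28 stood at 79.2 and 306 RPKM (1.94) and RPL35A at 162 and 615 RPKM (1.92). Mitochondrial ribosomal protein genes had a median difference of 0.32. Lower in HCC1937 were 8 genes, with RPS27L (11.8 and 6.51 RPKM, -0.77), RPL17 (135 and 103 RPKM, -0.39) and the X-linked RPS4X (173 and 136 RPKM, -0.35) furthest. The lines differ in origin and medium, and each level comes from 1 library.

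**Figure D4:**
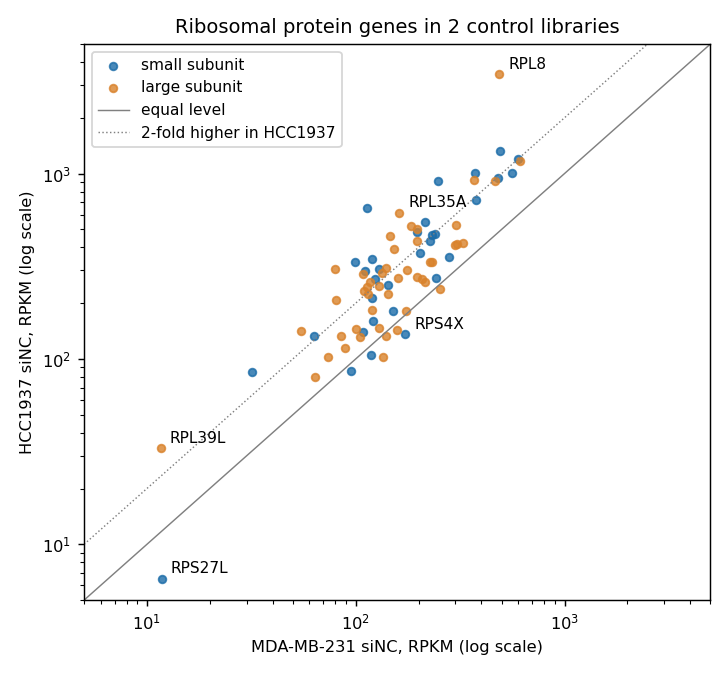
RPKM of each ribosomal protein gene in MDA-MB-231 with siNC (x axis, log scale) and HCC1937 with siNC (y axis, log scale), coloured by subunit, with lines of equal level and of a 2-fold higher level in HCC1937. Of the 79 points 71 lie above the line of equal level and 32 reach the 2-fold line, RPL8 furthest above it.

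The other genes of ribosome production were placed differently in each cell type. In MEFs the ribosome assembly factors, which fold and cut the rRNA in the nucleolus, had a median log2 ratio of -0.32 with 48 of 51 below 0, where 52.9% of all genes were, a share that also stands behind the other MEF counts here. The lowest were DDX21 (48.1 to 30.5 RPKM, log2 ratio -0.64) and the box C/D protein NOP58 (9.99 to 6.44 RPKM, log2 ratio -0.56), and the highest SBDS (27.1 to 30.5 RPKM, log2 ratio 0.17) and PPAN (27.7 to 29.4 RPKM, log2 ratio 0.09). The RNA polymerase I machinery had a median of -0.19 with 17 of 20 below 0, from CD3EAP (15.3 to 9.95 RPKM, log2 ratio -0.57) and TAF1B (2.95 to 1.75 RPKM, log2 ratio -0.52) up to POLR2E (22.8 to 23.4 RPKM, log2 ratio 0.03) and TAF1C (5.82 to 6.23 RPKM, log2 ratio 0.09). Translation factors and other known TOP mRNAs had a median of -0.25 with 17 of 19 below 0, where the lowest were HNRNPA1 (259 to 161 RPKM, log2 ratio -0.68) and NPM1 (189.9 to 135 RPKM, log2 ratio -0.48) and the highest EIF4A2 (44.2 to 57.9 RPKM, log2 ratio 0.38) and TPT1 (425 to 434 RPKM, log2 ratio 0.03). These groups had medians close to or below that of the ribosomal proteins, whereas the 77 mitochondrial ribosomal protein genes had a median of -0.07.

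Dedicated chaperones of single ribosomal proteins, such as GRWD1 for RPL3, were below 0 in MEFs in 8 of 8 cases, where 52.9% of all genes were, with a median of -0.34, from GRWD1 (24.9 to 16.1 RPKM, log2 ratio -0.60) and NAP1L1 (83.0 to 60.1 RPKM, log2 ratio -0.46) up to TSR2 (5.73 to 4.89 RPKM, log2 ratio -0.19) and PDCD2L (7.05 to 6.78 RPKM, log2 ratio -0.05). A further list, called TOP-binding and mTORC1 genes below, held genes that bind TOP mRNAs, belong to mTORC1 or act upstream or downstream of it. It had a median of -0.20 with 14 of 19 below 0. The lowest were EIF4EBP2 (35.7 to 23.96 RPKM, log2 ratio -0.56) and LARP4 (15.2 to 11.3 RPKM, log2 ratio -0.39). The highest were AKT1S1 (55.8 to 60.7 RPKM, log2 ratio 0.12) and TSC1 (2.55 to 3.09 RPKM, log2 ratio 0.20). LARP1, the TOP-binding protein, measured 39.6 and 30.4 RPKM. MYC, which drives many of these genes, measured 42.4 RPKM in wild-type and 32.3 RPKM in knockout MEFs, and MXD3, its antagonist, 16.96 and 11.8 RPKM. The other MYC family genes lay between MNT (-0.06) and MXD4 (0.29), so the family had no common direction. Ribosomal protein genes whose names the rule does not match were lower in 6 of 6 cases, from Rpl22l1 (61.3 to 44.9 RPKM, log2 ratio -0.44) to Fau (446 to 434 RPKM, log2 ratio -0.04) among those named here.

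**Figure D5:**
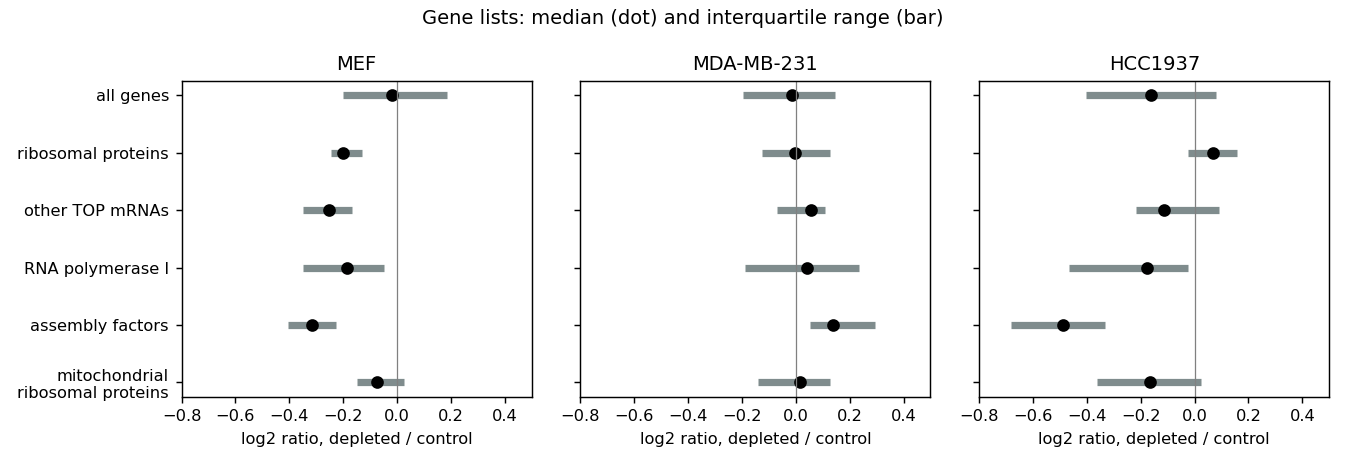
Median (dot) and interquartile range (bar) of the log2 ratio of RPKM + 1, LARP7-depleted over control, for all genes at 1 RPKM or more and 5 gene lists, in MEFs, MDA-MB-231 and HCC1937. Assembly factors sit at -0.32, 0.14 and -0.49 and ribosomal proteins at -0.20, -0.00 and 0.07 as deposited. In HCC1937 the ribosomal proteins lie at -0.13 without the composition trend, beside -0.16 for all genes. The other TOP mRNAs turn there from -0.11 to 0.03 when the libraries are scaled by the median ratio.

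In MDA-MB-231 the median log2 ratio of the assembly factors was above that of the ribosomal proteins, a difference that was not tested. Their median log2 ratio was 0.14 with 43 of 52 above 0, where 47.6% of all genes were, and 0.18 with the composition trend removed, beside -0.00 and 0.07 for the ribosomal proteins. The rRNA methyltransferase fibrillarin (FBL, 40.2 to 62.3 RPKM, log2 ratio 0.62) and RRS1 (6.39 to 10.1 RPKM, log2 ratio 0.58) were highest, and NMD3 (5.42 to 4.21 RPKM, log2 ratio -0.30) and UTP14A (5.70 to 4.89 RPKM, log2 ratio -0.19) lowest. The RNA polymerase I machinery had a median of 0.04, from TAF1B (4.17 to 3.23 RPKM, log2 ratio -0.29) and RRN3 (5.14 to 4.14 RPKM, log2 ratio -0.26) to CD3EAP (7.11 to 10.1 RPKM, log2 ratio 0.45) and POLR2L (97.9 to 139 RPKM, log2 ratio 0.51). The other TOP mRNAs had a median of 0.06, from EIF4A2 (52.1 to 44.95 RPKM, log2 ratio -0.21) and EIF4B (34.9 to 30.5 RPKM, log2 ratio -0.19) to EEF1D (28.6 to 35.99 RPKM, log2 ratio 0.32) and PABPC1 (140.1 to 179 RPKM, log2 ratio 0.35). The chaperones had a median of 0.11 with 7 of 8 above 0, TSR2 being the exception (26.5 to 23.2 RPKM, log2 ratio -0.18). The TOP-binding and mTORC1 genes had a median of 0.02, which was -0.01 with the trend removed, and the mitochondrial ribosomal proteins one of 0.01. MYC measured 29.1 RPKM with siNC and 38.3 RPKM with siLARP7 and was the highest by ratio of its family.

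In HCC1937 the assembly factors parted most clearly from the ribosomal proteins. Their median log2 ratio was -0.49 with 45 of 52 below 0, where 67.3% of all genes were, and 3 of them were lower by 2-fold or more, where 1.32% of all genes were. The 3 were LTV1, an export factor known from yeast to chaperone RPS3 (12.1 to 4.17 RPKM, log2 ratio -1.34), the box C/D protein NOP58 (15.3 to 6.46 RPKM, log2 ratio -1.13) and the processome protein UTP14A (6.999 to 2.75 RPKM, log2 ratio -1.09), whereas NOP16 (22.7 to 25.7 RPKM, log2 ratio 0.17) and NHP2 (155 to 165 RPKM, log2 ratio 0.10) were highest. With the trend removed the median was -0.44, beside -0.13 for the ribosomal proteins, and with median-ratio scaling -0.37 beside 0.22, so the assembly factors were the lower group under each setting. The RNA polymerase I machinery had a median of -0.18, close to that of all genes, from TWISTNB (8.19 to 3.86 RPKM, log2 ratio -0.92) and RRN3 (12.7 to 7.02 RPKM, log2 ratio -0.78) to POLR2L (47.5 to 54.6 RPKM, log2 ratio 0.20) and TAF1C (5.01 to 6.12 RPKM, log2 ratio 0.25). The other TOP mRNAs had a median of -0.11 as deposited and 0.03 with median-ratio scaling, from NAP1L1 (17.8 to 13.8 RPKM, log2 ratio -0.35) and NPM1 (214 to 176 RPKM, log2 ratio -0.27) to EEF1D (80.1 to 93.4 RPKM, log2 ratio 0.22) and EEF2 (398 to 487 RPKM, log2 ratio 0.29). The chaperones had a median of -0.32, with HEATR3 (4.37 to 2.39 RPKM, log2 ratio -0.66) second lowest after LTV1 and GRWD1 (7.39 to 7.69 RPKM, log2 ratio 0.05) highest. MYC measured 46.3 and 52.4 RPKM. The mitochondrial ribosomal proteins had a median of -0.17, which was 0.03 with trimmed-mean scaling.

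Pseudogenes of the ribosomal protein genes, most of them intronless copies, carried a part of the signal. Their summed control level came to 13.4% of that of the ribosomal protein genes in MEFs (95 pseudogenes at 1 RPKM or more), 21.1% in MDA-MB-231 (65) and 22.9% in HCC1937 (69). Their median log2 ratios were -0.13, 0.04 and 0.03. In 5, 4 and 5 cases a pseudogene stood above its parent in the control. RPL39P3 stood at 1702 RPKM in HCC1937 with siNC, where RPL39 stood at 273 RPKM, and RPL41P1 at 1692 RPKM, where RPL41, the shortest ribosomal protein, stood at 912 RPKM. RPS2P46 went against its parent in MDA-MB-231, with 91.4 RPKM under siNC and 52.5 RPKM under siLARP7 (log2 ratio -0.79), whereas RPS2 measured 479 RPKM under siNC and 574 RPKM under siLARP7 (log2 ratio 0.26). Levels of a parent with such a copy are therefore uncertain. The repeated entries of the human tables show a like spread, with RPS9 listed 10 times at 88.2 to 496 RPKM in MDA-MB-231 and 236 to 1351 RPKM in HCC1937, and the entries kept here at 119.7 and 347 RPKM.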

How the data were processed

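RNA abundance was measured in 6 libraries, 1 per group. The submitters' processing notes name cutadapt, FastQC, STAR and the GRCh37 build, with no versions. A build for the mouse table, a counting program and the use of strand were not given in the sources used here. Values analysed are RPKM as the authors deposited them. The log2 changes deposited beside them by the authors carry the name GFOLD and the setting 0.01 in their headers and are quoted as the authors' values. The libraries labelled MEF hold mouse genes although their organism label reads human.

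Log2 ratios were taken on RPKM + 1 for genes at 1 RPKM or more in the control, which understates changes of low genes, and sizes of 1.5-fold and 2-fold were counted. No test was made. Entries of the human tables outside the primary assembly of GENCODE release 29 were dropped where the same symbol had an entry inside, pseudoautosomal copies on Y were dropped, and a gene listed under a pair of names was kept once. Depth was recovered from single-exon genes of the human lines, where 92.1% to 93.4% of values gave whole reads within 0.03, and in MEFs from 300 microRNA genes per library, where 42.7% and 44.3% gave a whole length within 0.02 bases, so that depth is less certain. Reads per human gene are approximate, and the exact 95% Clopper-Pearson intervals cover counting error only, since PCR copies are not independent molecules. The composition trend was a polynomial of degree 3 on GC content, log2 length and mean level, with the mean log2 ratio added back. It was fitted over 11524 (MDA-MB-231) and 10708 (HCC1937) protein-coding genes. GC content and length were those of each gene's longest annotated transcript, which may not be the form expressed, so trend-removed values rest on that choice. Named were the 4 lowest and 4 highest genes of each comparison, the 3 highest and lowest by control level, and a set of genes with known roles. Also named were a set of paralogs and up to 5 genes furthest on 1 side of the median in all 3 comparisons. Of each other list the 2 lowest and 2 highest were named. Pseudogenes, RPL35A, RPL17, RPL41, LARP1 and the genes below 0 in all 3 comparisons were named after their values were seen. A few genes picked by that rule are left out of the text and of the plot by gene. The members and lists were chosen with earlier results of these data known. Alternatives were the pseudocount, the minimum level, the scaling, the trend and the choice of members. Steps were tested on simulated data with Python 3.11.15, numpy 2.4.6, pandas 2.3.3, scipy 1.17.1 and matplotlib 3.10.9.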

Additional observations from a re-analysis of the deposited data

Results flagged for a closer look

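The median log2 ratio of the ribosomal protein genes lay on opposite sides of 0 in MEFs (-0.20) and HCC1937 (0.07), a difference of -0.267 for MEFs minus HCC1937. It was picked out because the depleted-to-control difference has opposite signs in these pairs of libraries as deposited. It was not tested, with 1 library per group, and the pairs also differ in species and in knockout against siRNA. With the composition trend removed in HCC1937 the medians lay on the same side of 0 (-0.20 and -0.13), although that trend could not be removed in MEFs. The median of all genes was -0.02 in MEFs and -0.16 in HCC1937 with the trend removed. The family thus lay below all genes in MEFs and slightly above them in HCC1937, so the shared sign is no likeness of the family's position.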

How the results depend on the processing

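Of 57 alternatives, 41 left the value in place, 9 moved it and 7 turned its sign. In MEFs trimmed-mean scaling gave a median log2 ratio of -0.26, and the trend was not removed there because no mouse transcript sequences were used here. In MDA-MB-231 the median, -0.0026, was 0.0013 with no minimum level and also without the paralogs RPL39L and RPS27L. It was 0.00054 with median-ratio scaling, 0.00025 with trimmed-mean scaling and 0.0043 with ribosomal protein genes outside the name rule. With the trend removed it was 0.070, which left 26 genes below 0 in place of 40. The 1.5-fold threshold gave 3 genes there and 2-fold 0. In HCC1937 the median was 0.22 with median-ratio scaling (2 genes below 0), 0.27 with trimmed-mean scaling (1 gene) and -0.13 with the trend removed (72 genes). Its sign thus depends on the setting, and the cause was not tested. The medians of all genes under these settings were -0.04, 0.004 and -0.16, each below that of the family. The control-level difference between the lines was 1.24 with trimmed-mean scaling. Keeping all entries that carry the names, an alternative chosen after seeing the data, changed neither direction. No paired analysis was possible because each group holds 1 library, and for the same reason no library could be left out. Read numbers limit the 79 human genes little, from about 612 reads for RPL39L upwards in the control of MDA-MB-231.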

Other observations

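Values below give control to LARP7-depleted RPKM and the log2 ratio. Among the mitochondrial ribosomal proteins, which serve the separate ribosome of mitochondria, the lowest in MEFs were MRPL3 (8.90 to 6.10 RPKM, -0.48) and MRPS15 (16.9 to 12.8 RPKM, -0.38) and the highest MRPL22 (12.5 to 14.6 RPKM, 0.21) and MRPS33 (15.03 to 17.4 RPKM, 0.20). In MDA-MB-231 the lowest were MRPS36 (13.6 to 8.04 RPKM, -0.69) and MRPL39 (11.7 to 8.19 RPKM, -0.47) and the highest MRPS2 (18.6 to 25.9 RPKM, 0.46) and MRPL30 (8.995 to 12.3 RPKM, 0.41). In HCC1937 the lowest were MRPS31 (5.64 to 2.39 RPKM, -0.97) and MRPS17 (8.63 to 4.002 RPKM, -0.94) and the highest MRPL14 (115 to 142 RPKM, 0.30) and MRPL41 (161 to 189 RPKM, 0.23), with no gene among the extremes of more than 1 cell type. Of the TOP-binding and mTORC1 genes, EIF4E (4.31 to 3.34 RPKM, -0.29) and TIA1 (8.13 to 6.51 RPKM, -0.28) were lowest and MTOR (3.34 to 4.31 RPKM, 0.29) and RPTOR (4.65 to 5.58 RPKM, 0.22) highest in MDA-MB-231. In HCC1937 these were LARP4 (5.62 to 2.44 RPKM, -0.94) and EIF4EBP2 (2.96 to 1.42 RPKM, -0.71) and AKT1S1 (7.66 to 10.3 RPKM, 0.38) and MLST8 (14.3 to 18.4 RPKM, 0.35). EIF4EBP2 and LARP4, a poly(A)-binding La-related protein, were thus the lowest 2 there as in MEFs. Of the ribosomal protein genes outside the name rule, the highest were RPL7L1 (39.8 to 46.7 RPKM, 0.22) and RPL22L1 (4.65 to 5.34 RPKM, 0.17) in MDA-MB-231. In HCC1937 they ran from RPL7L1 (35.2 to 21.05 RPKM, -0.71) and RPL36AL (171 to 139 RPKM, -0.29) to RPL22L1 (14.4 to 18.5 RPKM, 0.34) and FAU (457 to 494 RPKM, 0.11), and RPL7L1, a paralog of RPL7, was at the high end in one line and at the low end in the other. The MYC family ran from MXD1 (1.32 to 1.14 RPKM, -0.11) and MXD3 (35.3 to 34.5 RPKM, -0.03) to MYC (29.1 to 38.3 RPKM, 0.39) and MNT (3.64 to 4.49 RPKM, 0.24) in MDA-MB-231. In HCC1937 it ran from MAX (6.54 to 5.81 RPKM, -0.15) and MXD3 (42.1 to 46.2 RPKM, 0.13) to MXD1 (4.92 to 7.38 RPKM, 0.50) and MNT (2.13 to 2.80 RPKM, 0.28). Chaperones of single ribosomal proteins ran from TSR2 (26.5 to 23.2 RPKM, -0.18) and BCCIP (12.5 to 12.6 RPKM, 0.01) to HEATR3 (5.07 to 6.54 RPKM, 0.31) and PDCD2 (5.79 to 7.35 RPKM, 0.30) in MDA-MB-231. In HCC1937 the highest were GRWD1 (7.39 to 7.69 RPKM, 0.05) and TSR2 (23.00 to 21.2 RPKM, -0.11). MDM4, the partner of MDM2, measured 5.11 to 5.27 RPKM, log2 ratio 0.04 in MEFs, 4.64 to 6.29 RPKM, log2 ratio 0.37 in MDA-MB-231 and 1.01 to 0.524 RPKM, log2 ratio -0.40 in HCC1937.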
